A study of Mus musculus with 31 samples.

Results

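DNA methylation was compared between the stages of mouse oocyte growth titled Type7 and Type2, which lie near the end and the start of the series. Members were the 3 libraries titled Type7 OC and the 3 titled Type2 OC, 6 of 31 in all, chosen by title. Type2 oocytes came from primordial follicles, the resting follicles with a small oocyte and a flat layer of somatic cells. Type7 oocytes came from antral follicles, the large fluid-filled follicles with a grown oocyte. These follicle classes are those of the titles and the tissue label; a further label on developmental stage names embryo stages, contradicts them and was not used. All mice were of the strain B6D2F1 (C57BL/6 x DBA/2), a first-generation hybrid, and no treatment, mutation or age is given in the sources used here. The 31 libraries cover 9 stages titled Type1 to Type7, with Type3 and Type5 each divided into a and b. Reduced representation bisulfite sequencing was used, which cuts DNA with the enzyme MspI and thus samples mostly CpG-rich fragments. How many oocytes went into a library, and whether those of a stage came from different animals, is not stated, so each p-value here refers to variation among libraries that may be technical only.

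Female germ cells of the mouse enter meiotic arrest with little DNA methylation. The oocyte methylome is laid down after birth while the oocyte grows, by the methyltransferase DNMT3A with its cofactor DNMT3L, and it is known for covering transcribed gene bodies while most CpG islands stay free of it. A small set of promoters methylated in this period keeps the mark on the maternal chromosome after fertilisation, and these are the maternal imprints.

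Reads over CpG sites numbered from 44537103 to 45881088 in the Type2 libraries, and were 38633220, 25881405 and 12070769 in Type7 replicates 1, 2 and 3. Between 381972 and 693110 sites per library had at least 5 reads, the minimum used here. Levels are percentages of methylated reads in fixed 100-bp tiles with at least 3 such sites, and values after ± are SDs between libraries. The stages are labelled by the rule as those with least spread between libraries. Over tiles with at least 30 reads, pairs of Type2 libraries differed by 5.18 points on average, the lowest of the 9 stages, and pairs of Type7 libraries by 7.95 points, against 8.03 in Type1, the next in order. Type2 replicate 3 lay above the other two Type2 libraries in mean level. As a check for DNA of somatic female cells, whose inactive X is methylated at CpG islands, the level of CpG-dense X tiles minus that of CpG-dense autosomal tiles was −4.90 points ± 0.283 in Type2 and −5.99 ± 0.372 in Type7, below 0 in all 6 libraries. It rests on 49 X tiles against 2406 autosomal tiles, and the SDs are between libraries over these same tiles.

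Type7 oocytes were more methylated than Type2 oocytes in every library. Over the 35660 tiles measured in all 6 libraries, the mean tile level was 17.7%, 17.6% and 19.4% in Type2 replicates 1 to 3, and 35.7%, 36.1% and 35.8% in Type7 replicates 1 to 3. No library of a stage reached the range of the other. The means were 18.3% ± 1.00 and 35.8% ± 0.222 (n = 3 each), a difference of 17.6 points (two-sided exact permutation p = 0.1, the smallest that 3 libraries against 3 can give).

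Nearly unmethylated tiles became fewer and nearly fully methylated ones more frequent. Tiles below 10% made up 58.1% ± 1.94 of the 35660 in Type2 and 44.6% ± 0.0673 in Type7. Tiles above 90% made up 0.375% ± 0.0941 in Type2 and 12.9% ± 0.168 in Type7. The share between these bounds was 41.5% ± 1.85 in Type2 and 42.5% ± 0.235 in Type7 (exact permutation p = 0.4), a difference smaller than the spread of Type2. In stage means, 16960 tiles were below 20% in both stages, 3204 passed from below 20% to above 80%, and 2695 passed from 20 to 80% to above 80%. A further 9217 tiles lay between 20 and 80% in both, where the mean was 42.9% in Type2 and 58.6% in Type7; such a level averages over the DNA copies and oocytes of a library. No tile passed from above 80% to below 20%, and 317 (90.3%) of the tiles above 80% in Type2 were above 80% in Type7 too.

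**Figure D1:**
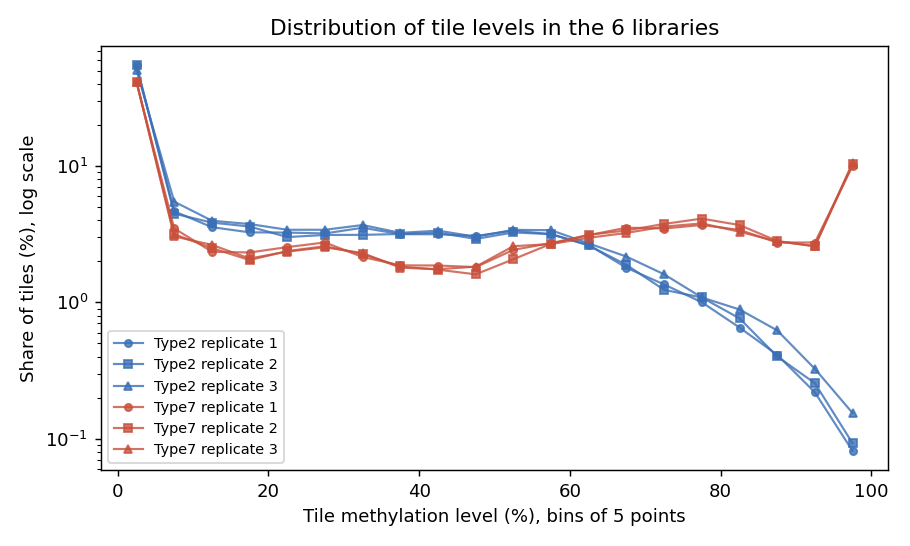
Share of the 35660 tiles measured in all 6 libraries (vertical axis, percent, log scale) in each 5-point bin of methylation level (horizontal axis, percent), one line per library, Type2 in blue and Type7 in red. The bin from 95 to 100% holds 10.01 to 10.5% of tiles in the Type7 libraries and 0.0813 to 0.154% in the Type2 libraries.

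Tile by tile, the difference ran almost wholly in one direction. A tile was called when the quasi-binomial model gave an adjusted p (Benjamini-Hochberg) under 0.05 and the stage means differed by at least 20 points. Of 64544 tiles measured in at least 2 libraries of each stage, 14462 (22.4%) were higher in Type7 and 32 (0.0496%) were lower. Of the tiles called higher, 9438 differed by at least 50 points, and 6316 (43.7%) passed from below 10% to above 90%. Over the 8333 of them measured in all 6 libraries, the mean was 22.5% ± 1.43 in Type2 and 80.9% ± 0.325 in Type7. At 7985 of these 8333 the 3 Type7 libraries all lay above the 3 Type2 libraries. With no model, the 3 Type7 libraries all lay above the 3 Type2 libraries at 12994 (36.4%) of the 35660 tiles, and all below them at 687 (1.93%). The count of calls depended on the libraries and the test: 8319 tiles of 41835 tested were called higher without Type7 replicate 1 and 9362 of 43973 without Type7 replicate 2, which leave fewer tiles to test, and edgeR's quasi-likelihood test called 8522 of the 64544.

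The 5 tiles named by rule, those with the largest difference and most reads, were at 0% in every Type2 library and at 100% in every Type7 library. The first, chr8:108241401-108241500 (mm9, as are all coordinates here), lay 9262 bp downstream of the start of 4933405L10Rik and was read at 7 CpGs. Its reads numbered 279, 182 and 509 in Type2 replicates 1 to 3, and 1892, 148 and 238 in Type7 replicates 1 to 3 (quasi-binomial model, adjusted p = 1.22e-06). The second, chr17:56715101-56715200, lay 8857 bp downstream of the start of Safb2, which encodes a scaffold attachment factor. The other 3 were chr17:26321201-26321300, chr7:150481401-150481500 and chr15:75890101-75890200, none within 20 kb of a recognised gene start. Only 42.0% of promoter sequences with at least 4 CpGs were recognised, so a start that was not recognised may lie nearer. In Type6, the antral stage before Type7 in title order, these 5 tiles were at 74.9 to 99.9%.

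The CpGs of called tiles were also read singly. Of 8284 tiles called higher with at least 3 CpGs read in all 6 libraries, 42.3% had every CpG above 80% in Type7, 46.7% had every CpG below 20% in Type2 and 29.8% (2466 tiles) had both. A CpG below 20% in Type7 was found in 3.21%. The 2 bases next to a CpG went with small offsets in both stages. Over all 35660 tiles, CpGs in ACGG (or its reverse complement CCGT) differed from the other CpGs of their tiles by −7.10 points ± 0.549 in Type2 and −5.17 ± 0.359 in Type7. CpGs in CCGG, the sequence that MspI cuts, differed by 5.42 points ± 0.0909 in Type2 and 2.88 ± 0.182 in Type7.

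CpG density separated the tiles that gained much from those that gained little. Density counts the CpG sites that any of the 31 libraries lists in the surrounding 1 kb, and so what the assay reached. In the sparsest tiles, with 0 to 9 sites, the level was 14.7%, 15% and 18.4% in the Type2 libraries and 48.3%, 49.2% and 49.1% in the Type7 libraries, means of 16.0% ± 2.03 and 48.8% ± 0.501. In the densest tiles, with 60 sites or more, it was 5.78%, 5.83% and 6.07% in Type2 and 10.3%, 10.4% and 10.3% in Type7, means of 5.89% ± 0.153 and 10.3% ± 0.05. The groups did not overlap in any of the 5 density classes. Between these, the gain was 24.0 points at 10 to 19 sites, 13.8 at 20 to 39 and 8.35 at 40 to 59. Densest minus sparsest tiles stood at −10.1 points ± 1.88 in Type2 and −38.5 ± 0.479 in Type7, a difference of −28.4 points (exact permutation p = 0.1). The share of tested tiles called higher was smaller in each denser class, at 37.0%, 28.5%, 18.4%, 11.5% and 5.75% from the sparsest class to the densest.

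**Figure D2:**
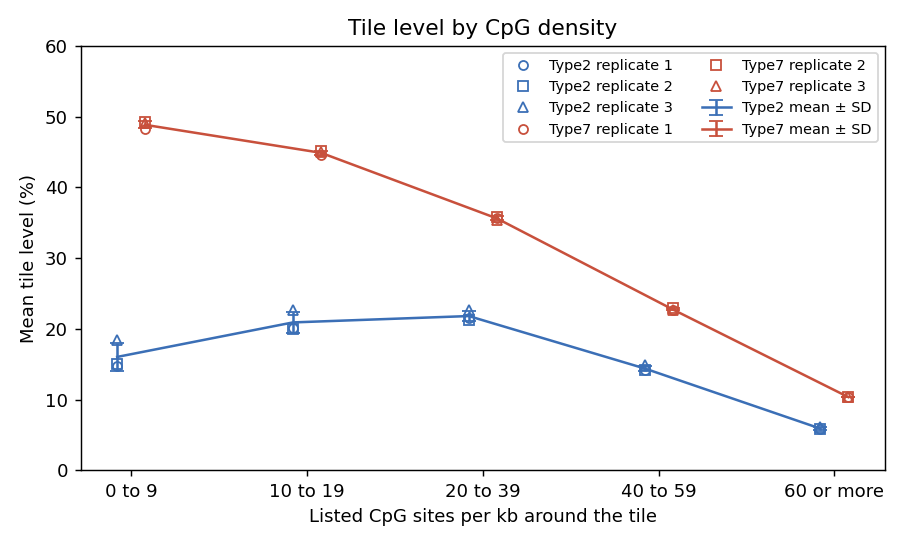
Mean tile level (vertical axis, percent) against the number of listed CpG sites per kb (horizontal axis, 5 classes), with a symbol for each library and lines through stage means with SD bars. Type2 (blue) goes from 16.0% to 5.89% with its maximum of 21.8% at 20 to 39 sites, and Type7 (red) goes from 48.8% down to 10.3%.

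All chromosomes gained. The share of tested tiles called higher ran from 18.2% on chromosome 9 to 27.5% on chromosome 5, with 24.0% on X. Among tiles with fewer than 20 sites per kb the spread was wider, from 24.0% on chromosome 3 to 42.5% on chromosome 5, with 27.8% on X. Tiles on X averaged 32.0% ± 1.04 in Type2 and 51.3% ± 0.698 in Type7, and autosomal tiles 17.5% ± 1.00 and 35% ± 0.198. The X level thus exceeded the autosomal level by 14.5 points ± 0.250 in Type2 and 16.3 ± 0.526 in Type7, a change of 1.75 points (exact permutation p = 0.1). The direction of this change did not hold: it was −0.301 points over tiles measured in at least 2 libraries of each stage, and 0.673 points without Type7 replicate 3, 1.04 points without Type7 replicate 2.

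Genes were placed by recognising annotated promoter sequences in the listed sites. Each window spans 250 bp before a RefSeq transcription start to 50 bp after it, and 8775 windows of 8346 genes were recognised on mm9. Around the starts of 2983 protein-coding genes of at least 10 kb, both stages were nearly free of methylation at the start, and Type7 was methylated inside the gene. Within the promoter window the mean tile level was 0.943% ± 0.213 in Type2 and 2.52% ± 0.109 in Type7. From 1 to 5 kb inside the gene it was 1.35% ± 0.785 in Type2 and 27.9% ± 1.35 in Type7, and from 5 to 20 kb it was 6.60% ± 1.76 and 56.9% ± 1.05. From 20 to 50 kb inside it was 9.80% ± 2.52 and 65.1% ± 1.07. Upstream of the start the Type7 level was 29.2% ± 1.44 from 1 to 5 kb, and beyond that lower than at the same distance inside the gene, at 25.3% ± 0.582 from 5 to 20 kb and 24.1% ± 0.531 from 20 to 50 kb.

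**Figure D3:**
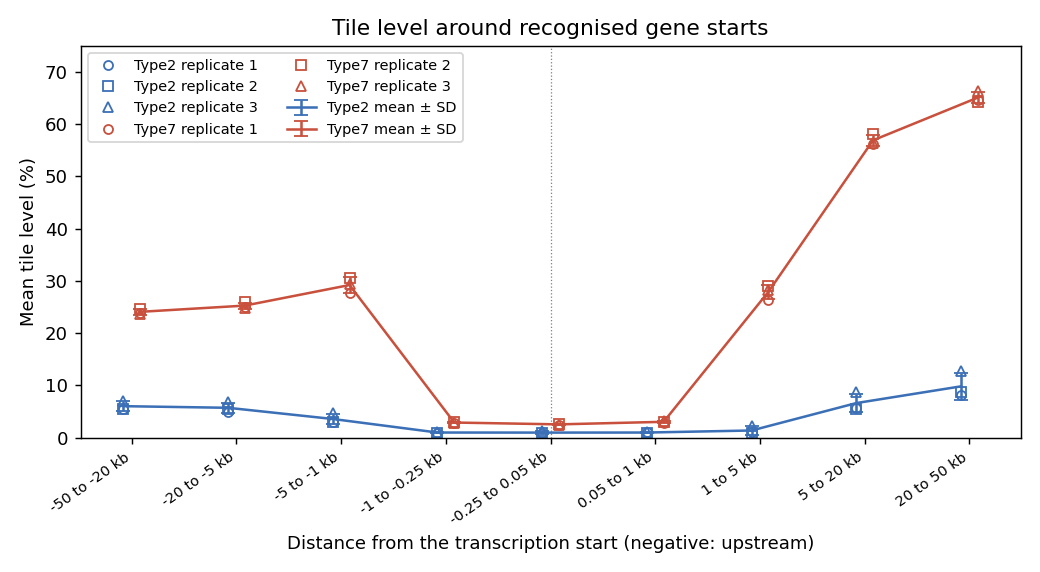
Mean tile level (vertical axis, percent) by distance from the outermost recognised transcription start (horizontal axis, 9 intervals, negative values upstream), with a symbol for each library and lines through stage means with SD bars. At the start both stages lie under 3.01%, and from 20 to 50 kb inside the gene Type7 (red) reaches 65.1% where Type2 (blue) is at 9.80%.

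Gene bodies, taken from 1 kb inside to the annotated end, held 3229 tested tiles, of which 51.5% were called higher, against 20.3% of 4578 tiles from 5 to 50 kb upstream and 22.4% of all tiles. Gene body minus upstream level was 5.76 points ± 0.836 in Type2 and 34.4 ± 0.637 in Type7, a difference of 28.7 points (exact permutation p = 0.1). The upstream stretches can hold other genes. Gene bodies and upstream stretches differ in CpG density, so the same values were taken within density classes. At 0 to 9 sites the level of gene bodies was 7.01% ± 2.45 in Type2 and 71.3% ± 1.11 in Type7, while upstream it was 8.89% ± 2.11 and 45.8% ± 0.797. At 60 sites or more, gene bodies went from 0.957% ± 0.325 to 23.1% ± 3.01 over 56 tiles, and upstream tiles from 0.856% ± 0.230 to 2.60% ± 0.214 over 190 tiles. In all 5 classes the excess of gene bodies over upstream tiles was larger in Type7 than in Type2, by 13.1 to 27.3 points.

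Gained tiles lay next to each other. Where a tile was called higher, 68.1% of tiles starting within 200 bp were called higher as well, against 7.42% next to a tile not called. At 5.1 to 20 kb the shares were 47.0% and 19.8%, and at 20.1 to 100 kb they were 35.6% and 22.7%. Runs of at least 5 consecutive gained tiles, with gaps of at most 10000 bp, numbered 243 and held 1576 tiles.

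The longest run, chr8:126062001-126147900, held 116 tiles over 85.9 kb and lay where the mouse 5S ribosomal RNA genes are known to form a tandem array, a placement from general knowledge and not from an annotation used here. Reads cannot be assigned to single copies of such an array. Its level was 2.10%, 1.2% and 5.09% in Type2 replicates 1 to 3 and 89.2%, 86.0% and 96.5% in Type7 replicates 1 to 3. The other runs named by their number of tiles were chr15:76005201-76026100 with 16 tiles, from 1.81% ± 1.80 to 96.9% ± 2.93, chr11:115647601-115673300 with 14, from 2.10% ± 1.09 to 98.5% ± 1.09, and chr4:141021401-141035200 with 13, from 2.24% ± 2.49 to 98.0% ± 2.03. The run chr1:132496501-132497800 differed from these: its 13 tiles lay side by side in 1.3 kb and stood at 53.0%, 59.8% and 61.4% in the Type2 libraries already, against 88.3%, 94.3% and 89.7% in Type7.

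A smaller share of promoters than of tiles was called higher. Of 4061 windows (3960 genes) measured in at least 2 libraries of each stage, 235 (5.79%) were called higher in Type7 and 1 (0.0246%) was called lower. A call does not require that the libraries of the stages separate. The window of Aox4 was called higher at 0% in Type2 and 21.4% ± 30.3 in Type7. Windows of different genes can overlap and share reads, as those of Bivm and Poglut2 do, so not all are independent. Over all tested windows the median level was 0.617% in Type2 and 0.193% in Type7. In Type2 no window was above 80%, and in Type7 148 were. Promoters poor in CpGs were called higher more often: 22.8% of 162 windows with 4 to 9 CpGs, 16.9% of 360 with 10 to 14, 6.91% of 579 with 15 to 19 and 3.28% of 2960 with 20 or more. The number of calls depends on the fit, with 153 higher when only the 2 stages entered the model, 121 with edgeR, 150 without Type7 replicate 1 and 134 without Type7 replicate 2.

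Promoters of maternally imprinted genes fell into those with stage means of 6.41% or less and those with a Type7 mean of 96.1% or more. Of 40 genes listed as maternally imprinted, 13 had a window that was recognised and measured, and 5 of these were called higher (38.5%, against 5.79% of all windows), none lower. limma called the same number higher and edgeR 3, neither any lower, and 8 had an unadjusted p under 0.05. Of all 4061 windows, limma called 216 higher and edgeR 121, and 751 had an unadjusted p under 0.05. The median difference was 6.03 points over the 13 windows and 0 over all 4061. The list was chosen with earlier results of these data known. It names genes and is not limited to starts known to carry the maternal mark, so a window without a call need not be an imprint that failed to gain. Sequences of Plagl1 and Mcts2, which gained, of Dnmt1, which gained at a start inside its gene, and of Grb10, which stayed free of methylation, show the CpGs behind the values. They run 5′ to 3′ on the gene's strand from 250 bases before the start to 50 after it, are RefSeq sequences of GRCm38.p6, and have in capitals the CpGs read in at least 2 libraries of each stage. The windows are chr10:12810388-12810687 (plus strand) for Plagl1, chr2:152512634-152512933 (plus) for Mcts2, chr9:20757018-20757317 (minus) for Dnmt1 and chr11:11937374-11937673 (minus) for Grb10.
Plagl1: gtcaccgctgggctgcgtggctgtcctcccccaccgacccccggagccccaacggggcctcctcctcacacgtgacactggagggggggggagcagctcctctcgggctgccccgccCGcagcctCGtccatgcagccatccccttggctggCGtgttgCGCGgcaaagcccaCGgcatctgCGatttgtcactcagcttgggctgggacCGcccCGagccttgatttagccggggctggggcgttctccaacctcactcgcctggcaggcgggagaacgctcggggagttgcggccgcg
Mcts2: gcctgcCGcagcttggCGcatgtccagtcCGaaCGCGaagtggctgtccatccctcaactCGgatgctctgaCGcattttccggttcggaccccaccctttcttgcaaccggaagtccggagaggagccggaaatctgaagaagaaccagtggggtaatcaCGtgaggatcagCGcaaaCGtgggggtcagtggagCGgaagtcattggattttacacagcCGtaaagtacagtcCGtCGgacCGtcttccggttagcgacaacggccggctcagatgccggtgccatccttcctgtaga
Dnmt1: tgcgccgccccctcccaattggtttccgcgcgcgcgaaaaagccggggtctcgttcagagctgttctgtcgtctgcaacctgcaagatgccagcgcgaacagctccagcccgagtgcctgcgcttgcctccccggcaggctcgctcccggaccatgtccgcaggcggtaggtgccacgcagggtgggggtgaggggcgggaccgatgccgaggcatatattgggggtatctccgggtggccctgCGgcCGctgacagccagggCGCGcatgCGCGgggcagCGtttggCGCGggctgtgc
Grb10: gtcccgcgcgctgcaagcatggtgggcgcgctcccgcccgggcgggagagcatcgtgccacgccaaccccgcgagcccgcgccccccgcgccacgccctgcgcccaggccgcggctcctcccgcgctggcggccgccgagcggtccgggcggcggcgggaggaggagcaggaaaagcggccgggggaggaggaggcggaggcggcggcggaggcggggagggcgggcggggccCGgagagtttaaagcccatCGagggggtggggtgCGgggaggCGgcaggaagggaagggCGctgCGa

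Plagl1 encodes a zinc-finger protein that slows growth and is expressed from the paternal copy. Its window was at 0% and 1.30% in Type2 replicates 1 and 2 and at 98.6% and 99.1% in Type7 replicates 1 and 2, and was not measured in the third replicate of either. Each of the 9 CpGs in capitals was at 8.33% or less in Type2 and at 97.1% or more in Type7. The adjusted p was 0.0117 with the quasi-binomial model and 0.0555 with edgeR, so the call was lost there. Mcts2, a retrogene inside another imprinted gene, H13, was at 0%, 0% and 2.54% in Type2 replicates 1 to 3 and at 100%, 92.6% and 100% in Type7 replicates 1 to 3 (quasi-binomial adjusted p = 3.09e-06). Of its 15 CpGs in capitals, the lowest was at 75.8% in Type7 and the highest at 3.53% in Type2.

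Nnat, which encodes the membrane protein neuronatin and lies inside the gene Blcap, was at 0% in the 3 Type2 libraries and at 96.9% and 100% in Type7 replicates 1 and 2 (quasi-binomial adjusted p = 0.00591, and 0.0859 without Type2 replicate 3). The window of Blcap itself was at 0% in the 3 Type2 libraries and at 0% and 12.1% in Type7, and was not called. Zrsr1, a retrogene related to a splicing factor, was at 0%, 0.877% and 3.54% in Type2 and at 88.4%, 100% and 100% in Type7 (quasi-binomial adjusted p = 0.000390).

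Snrpn, a ribonucleoprotein gene of the Prader-Willi region, was at 100%, 99.7% and 100% in Type7 but at 11.8%, 18% and 52.0% in Type2 replicates 1 to 3, on 51, 172 and 179 reads. It is the only one of the 5 whose Type2 level exceeded 5% in any library. Its window is at a start that is not its outermost. Its adjusted p was 0.0120 with the quasi-binomial model, 0.0650 with edgeR, 0.0553 without Type2 replicate 2 and 0.224 without Type7 replicate 2.

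The other 8 windows were not called. Grb10, a growth inhibitor, was at 0.879%, 1.35% and 0% in Type2 and at 0%, 0.222% and 0% in Type7, and Igf2r, the receptor that clears the growth factor IGF2, was at 0% in all 5 libraries that measured it. At both genes the maternal mark is known from another part of the gene than these starts. Zdbf2 was at 1.12% ± 1.01 and 0.939% ± 0.825, and Copg2 at 3.32% ± 2.96 and 0% in both Type7 libraries that measured it. The windows of Zim1 and Jade1 were at most at 5.26% in any of the 6 libraries. Sfmbt2 stood at 0% in Type2 and at 7.98%, 11.2% and 0% in Type7.

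The sequence TGCCGC, searched on both strands, is the motif bound by ZFP57, a protein that protects imprints after fertilisation. It was present in 4 of the 5 imprinted windows called higher, in 3 of the 8 not called, in 21.3% of the 235 windows called higher, in 24.1% of the 4061 tested and in 11.6% of all 32851 sequences of the promoter table. Meg3, a paternally imprinted gene, was the only tested member of its list and was at 0%, 0% and 36.3% in Type2 and at 0.270% and 0% in Type7, and was not called.

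**Figure D4:**
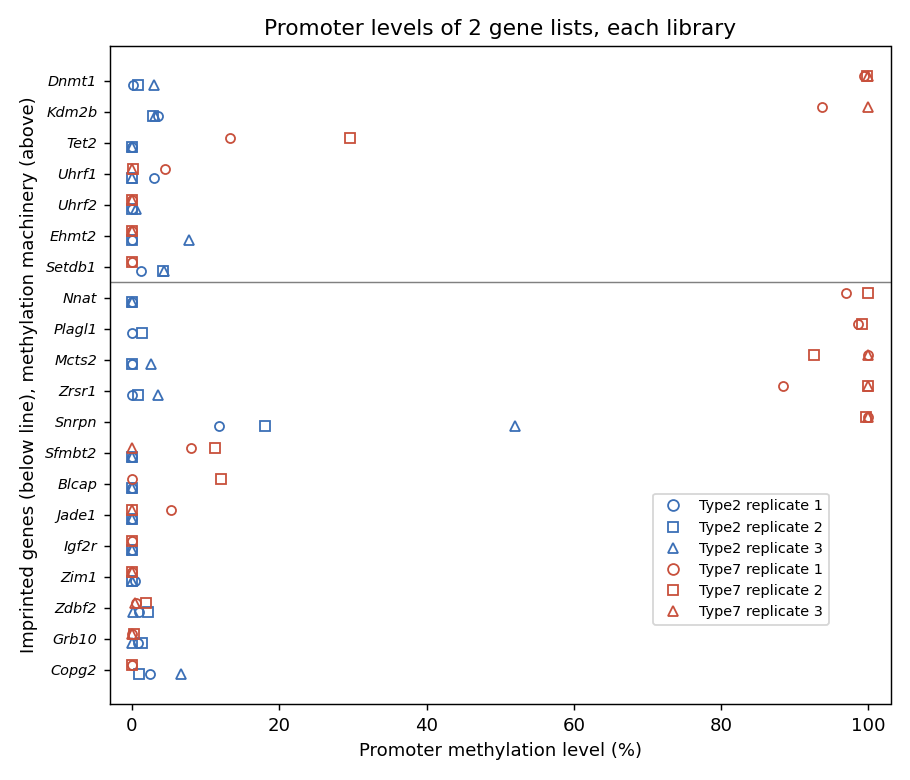
Methylation level (horizontal axis, percent) of the promoter windows of maternally imprinted genes (below the line) and of the methylation machinery (above it), with a symbol for each library, Type2 in blue and Type7 in red. Nnat, Plagl1, Mcts2, Zrsr1, Snrpn, Dnmt1 and Kdm2b have every Type7 library at 88.4% or more, and no other window has a Type7 library above 29.6%.

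Of 34 genes of the methylation machinery, 7 were measured and 2 were called higher (28.6%, against 5.79% of all windows), none lower, with a median difference of 0.507 points. A count of 7 windows is too small to be read against the share of all windows. limma called 3 higher and edgeR 1, neither any lower, and 3 had an unadjusted p under 0.05, as did 751 of all 4061 windows. Dnmt1 encodes the methyltransferase that copies methylation at replication. Its recognised window lies 7265 bp downstream of the outermost of its 3 annotated starts, and mouse oocytes are known to transcribe the gene from an upstream oocyte-specific start. The window was at 0.0770%, 0.755% and 2.98% in Type2 and at 99.5%, 99.8% and 100% in Type7 (quasi-binomial adjusted p = 1.32e-05), and each of its 9 CpGs in capitals was at 98.9% or more in Type7. Kdm2b, which encodes a protein that binds unmethylated CpG islands, was at 3.47%, 2.88% and 3.11% in Type2 and at 93.7% and 100% in Type7 replicates 1 and 3, the latter on 20 reads (quasi-binomial adjusted p = 2.74e-05, and 0.110 with edgeR). The Kdm2b window is also at a start that is not the outermost of its gene.

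Tet2, which oxidises methylated cytosine, stood at 0% in Type2 and at 13.4% and 29.6% in Type7 (quasi-binomial adjusted p = 0.104) and was not called. The windows of Uhrf1 and Uhrf2, whose proteins recognise DNA methylated on a single strand, and of the histone methyltransferases Ehmt2 and Setdb1, were at 7.69% or less in every library.

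The other lists are set beside the 5.79% of all windows called higher, and their counts are too small to be read against it. Of 7 housekeeping windows 1 (14.3%) was called higher, that of Gpi1, a glycolytic enzyme gene, at 0.383%, 0% and 3.09% in Type2 and 52.4% and 27.4% in Type7 (quasi-binomial adjusted p = 0.00220, 0.102 with only the 2 stages in the fit and 0.517 with edgeR). None of 4 windows of oocyte growth genes, 6 of germline and meiosis genes, 2 of pluripotency genes and 8 of developmental regulators was called in either direction by the quasi-binomial model, limma or edgeR, and at an unadjusted p under 0.05 there were 0, 1, 1 and 0. Among these, the oocyte gene Nlrp5, part of the subcortical complex of the egg, was at 9.37% ± 4.88 in Type2 and 1.28% ± 2.21 in Type7. The germ cell gene Asz1 was at 0% and 0.611% in Type7 replicates 1 and 2 but at 46.2% in replicate 3. Of 15 genes of granulosa and theca cells, the somatic cells around the oocyte, none had a measured window, so this list gives no measure of somatic DNA.

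Outside the lists, the 10 promoters named by largest difference passed from 1.23% or less to 98.5% or more. They were Gm26689, Gm29480, Gm51454, Gm26553, Gm32352, 4430402I18Rik, Blmh, Ankle1, Fry and Abl1, of which the genes with a Gm number are predicted genes of unknown function. The windows of Gm32352 and Fry are at starts that are not the outermost of their genes. Blmh, a protease gene, was at 0% in the 3 Type2 libraries and at 98.8%, 97.1% and 100% in Type7 replicates 1 to 3 (quasi-binomial adjusted p = 9.48e-07). Abl1, a tyrosine kinase gene, was at 0.564%, 0.262% and 1.16% in Type2 and at 100%, 100% and 96.6% in Type7 (quasi-binomial adjusted p = 8.15e-08) at a start that is not its outermost. The only window called lower, Cyb561d2, falls outside the naming rule and was chosen after its values were seen. It was at 84.9% and 0% in Type2 replicates 1 and 2 and at 0.488% and 0% in Type7, and it was not called by edgeR, limma or the fit of 2 stages.

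Starts inside genes were called higher at a larger share than others, which is given as a description with no test. Of 61 windows lying inside the body of a recognised gene, 15 (24.6%) were called higher, against 220 (5.50%) of 4000 others. These others include starts that are not the outermost of their own gene, such as that of Abl1. Of the 15, 7 were among 45 windows on the strand of the surrounding gene and 8 among 16 windows on the opposite strand only. Among windows with 4 to 14 CpGs the counts were 9 of 16 and 89 of 506, and among those with 20 or more they were 3 of 33 and 94 of 2927. Of 2507 outermost starts not inside another recognised gene, 111 (4.43%) were called higher. For 29 genes, both the outermost start and a start at least 1 kb further in were measured. In 5 of them the inner start was higher and the outer one was not called, in 1 the reverse was seen, and in 23 neither was called. The 5 were Bmf, Ncoa4, Rap1gap2, Rps6ka1 and Sphk2, with Type7 levels of 100%, 99.9%, 81.4%, 100% and 87.9% at the inner start and of 2.46%, 0%, 1.95%, 0.510% and 0% at the outer one. Bmf encodes a protein that promotes apoptosis and Sphk2 a sphingosine kinase. The reverse case was 4430402I18Rik, at 99.4% at the outer and 0.376% at the inner start.

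The libraries of other stages, which entered neither group, showed the gained tiles at 60.6% or more from Type5b on. The tiles called higher averaged 21.8% ± 5.06 in Type1, 16.6% ± 1.97 in Type2, 24.4% ± 10.5 in Type3a, 28.4% ± 4.54 in Type3b, 34.9% ± 10.6 (n = 5) in Type4 and 33.5% ± 5.92 (n = 5) in Type5a. They averaged 60.6% ± 4.46 in Type5b, 77.0% ± 0.794 in Type6 and 83.7% ± 0.707 in Type7. Each library was averaged over the called tiles it measured, so tile sets differ between libraries and from the set measured in all 6 libraries. Between Type6 and Type1, 9226 (76.7%) of the 12026 gained tiles measured there were called higher, where 24.2% of all 65593 tiles tested for that contrast were (0.119% were lower), and the median difference was 52.2 points. The model shares its estimate of spread between both contrasts.

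**Figure D5:**
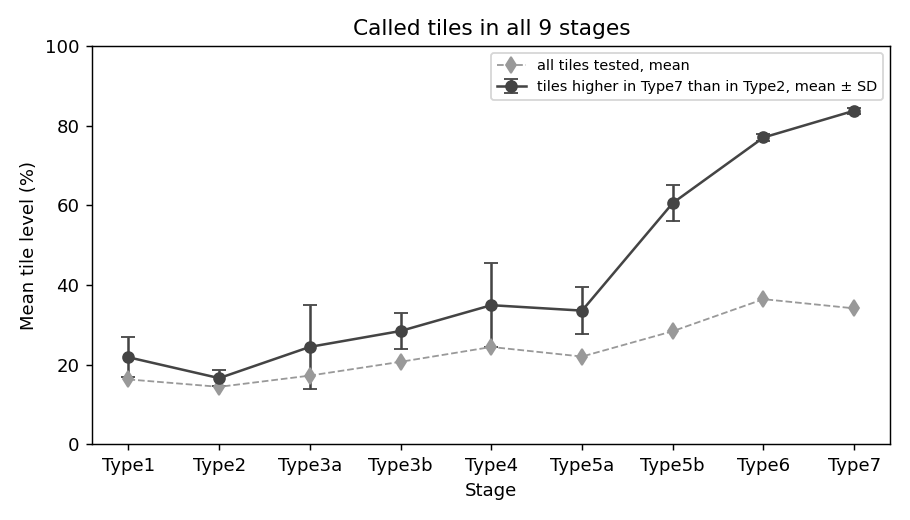
Mean level (vertical axis, percent) of the tiles called higher in Type7 than in Type2 (dark circles, mean and SD over libraries) and of all tiles tested (grey diamonds) in the 9 stages (horizontal axis). The dark line stands at 33.5% in Type5a and at 60.6% in Type5b, and reaches 83.7% in Type7. Type2 and Type7 chose these tiles, and each library is averaged over those it measured.

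The gained promoters were also followed into Type6. They were chosen for a high level in Type7, so a lower level elsewhere is in part built into the choice. Over all tested tiles Type6 averaged 36.4% and Type7 34.1%, but each library was averaged over the tiles it measured, so tile sets differ. Of the 146 windows called higher with a Type7 level above 80%, 128 were measured in at least 2 libraries of Type6, where 60 were above 80%, 61 between 20 and 80% and 7 below 20%. The Dnmt1 window was at 18.6%, 50.4% and 58.7% in Type6 replicates 1 to 3, and that of Kdm2b at 16.5%, 41.9% and 88.4%. Mcts2, Snrpn, Zrsr1 and Plagl1 were at 81.5% or more in every Type6 library. Ankle1, at 100%, 99% and 100% in Type7, was at 0.602% in the 1 library of Type6 that measured it and at 0% in both of Type5b. Blmh was at 99.9%, 90.1% and 66.2% in Type5b replicates 1 to 3, but at 2.46% and 59.4% in the 2 Type6 libraries that measured it. No difference between Type7 and Type6 was tested here.

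Tiles lower in Type7 were few. They numbered 32, or 14 without Type7 replicate 1, 17 without Type7 replicate 2 and 4 with edgeR. Of the 32, 9 were measured in all 6 libraries, where the mean was 53.8% ± 2.06 in Type2 and 21% ± 4.61 in Type7. Of 21 measured in Type6 and Type1, 1 was at least 20 points lower and 4 at least 20 points higher in Type6, and the median difference was 0. Among those measured in all 6 libraries without overlap of the stages, the largest difference was at chrX:89087601-89087700, with 61.9%, 78.1% and 55.8% in Type2 and 25.8%, 0% and 27.6% in Type7 (quasi-binomial adjusted p = 0.00771, and 0.0592 without Type2 replicate 2, 0.0511 without Type7 replicate 2). In Type6 that tile was at 66.8%. The tile chr17:39983601-39983700 lies, again from general knowledge, in the copy of the 45S ribosomal RNA gene that the assembly holds, to which reads of many copies map. It was at 50.8%, 38.4% and 44.4% in Type2 and at 8.50%, 15.1% and 7.72% in Type7 (quasi-binomial adjusted p = 0.00109, and 0.0607 without Type7 replicate 1). The other 3 named tiles, chr3:22860501-22860600, chr15:65104601-65104700 and chr3:133305701-133305800, differed by −40.5, −30.8 and −27.2 points, and each lost its call without at least 1 of the libraries: Type7 replicate 1 for the first (adjusted p = 0.0868), Type7 replicate 2 for the last (0.0613), and Type2 replicate 1 or any Type7 replicate for chr15 (0.0573 to 0.201). With edgeR the calls at all named lower tiles but the chr17 one were lost (adjusted p = 0.152 to 0.294).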

How the data were processed

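The authors deposited one table of CpG sites per library. Per the submitters' processing notes, BSMAP 2.89 and mm9 were used; which program called methylation, and whether reads were trimmed, is not given in the sources used here. The deposited files hold counts of all and of methylated reads per site and strand, and the methylated fraction. Listed sites have 3 reads or more. PCR copies cannot be told from separate molecules. C-to-T variants between the parental strains lower the measured level, and unconverted cytosines raise it.

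Reads at sites of 5 or more reads were added up within 100-bp tiles that hold 3 or more such sites, on autosomes and X. Tiles measured in at least 2 libraries of both stages were tested by a quasi-binomial model with stage as factor over all 31 libraries, with dispersion moderated over tiles and floored at 1, an F test and Benjamini-Hochberg adjustment. For means over tiles, the 3 libraries of each stage entered an exact two-sided permutation test. limma 3.58.1, edgeR 4.0.16 (R 4.3.3; a common dispersion from 2000 tiles), other minimums and tile sizes, and each library left out were alternatives. The model was also run on reads simulated with the same spread between libraries in every stage. The stages here differ in spread, so that run does not show the error rate of the model on these data. Work ran in Python 3.11.15 with numpy 2.4.6, scipy 1.17.1, pandas 2.3.3 and matplotlib 3.10.9.

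No mm9 annotation was used. A RefSeq promoter sequence (GRCm38.p6) was placed where at least 4 of its CpGs matched listed sites in spacing and flanking bases at a unique place on its chromosome, 90% of the sites listed in the window matched, and its order among neighbours held within 100 kb. Of 22455 sequences with at least 4 CpGs, 42.0% were placed; 0.557% matched a wrong chromosome before the order check. These settings were adjusted on the files before promoter levels were computed. Gene ends come from gene lengths of GRCm38.p6.

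Named tiles are the 5 per direction, and named promoters the members of the lists and the 10 others, with the largest difference among calls measured in all 6 libraries without overlap of the stages; runs are the 5 with most tiles. Members and lists were chosen with earlier results of these data known, and the gene body profile, inner starts, flanking bases, motif and the printed sequences after the files, the sequences after their values, were seen. At most 0.910% of sites had identical counts in any pair of libraries of a stage, so none was treated as a duplicate.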

Additional observations from a re-analysis of the deposited data

Results flagged for a closer look

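Reads on mitochondrial CpG sites, which no comparison above used, were more frequent in Type7. They numbered 66, 29 and 0 in Type2 replicates 1 to 3, and 1925, 2025 and 998 in Type7 replicates 1 to 3. Relative to each library's reads over sites (RPM) this was 0.708 ± 0.743 in Type2 and 70.2 ± 17.8 in Type7 (two-sided exact permutation p = 0.1, the smallest possible), with the highest Type2 library at 1.48 and the lowest Type7 library at 49.8. In Type7 10.5 to 12.8% of these reads were methylated.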

How the results depend on the processing

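The 4 differences in mean level kept their direction under every alternative run, except the X minus autosome difference, which was −0.301 points over tiles of at least 2 libraries of each stage. Tiles higher numbered 8387 when measured in all 6 libraries, 5148 with at least 5 sites, 9438 at 50 points, 8522 with edgeR and 8319 to 13236 with each library left out. Tiles lower numbered 9 in all 6 libraries, 14 at 10 reads per site, 13 with at least 5 sites, 17 with at most 10 reads counted per site, 456 with no minimum difference, 2 at 50 points, 16 with limma, 4 with edgeR and 14 to 32 with each library left out. Promoters higher numbered 153 with the 2 stages alone, 121 with edgeR and 134 to 208 with each library left out. Promoters lower numbered 0 at 10 reads per site, with the 2 stages alone, with limma and with edgeR, and 0 to 1 with each library left out; 751 windows had an unadjusted p under 0.05. Leaving out a library, raising a minimum or asking for all 6 libraries also leaves fewer tiles to test, and the cause of the other shifts was not tested.

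Same-numbered libraries did not deviate together over tiles (correlations of 0.0117, 0.0180 and −0.00240). This cannot decide whether they shared animals or a batch, which is not stated and need not leave a common deviation. With the replicate number as a block, on the 2 stages alone, tiles higher were 11977, tiles lower 55, promoters higher 109 and promoters lower 0. Of the named values, 21 of 146 for 10 tiles and 10 of 193 for 19 promoter windows lost an adjusted p under 0.05. The 19 include the inner start of 4430402I18Rik, which was never called and had none to lose. Settings that left a tile or window unmeasured are not counted, so these shares understate the losses. Depth limits the comparison most in Type7 replicate 3, and promoters read at few CpGs or in 2 libraries of a stage rest on that alone.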
